A study of Homo sapiens with 15 samples.

Results

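The 10 genes followed here encode ligands or surface enzymes by which a cell can restrain immune cells: CD274, PDCD1LG2, CD276, VTCN1, VSIR, CEACAM1, PVR, NECTIN2, NT5E and CD47. They were taken by gene symbol from the deposited gene tables, which list 20443 genes in all, and all 10 were found. The cells were A375, an established human melanoma line, and polyadenylated RNA was sequenced in 15 libraries, 3 for each of 5 groups. A starvation set compares medium holding 10% fetal bovine serum (FBS) with medium holding 0.1% FBS, both for 48 hours. An overexpression set compares a control vector, MKL1 and constitutively active MKL1 (caMKL1), each after 48 hours. MKL1 is listed in the tables under the symbol MRTFA; it is held in the cytoplasm by monomeric actin and, when free, drives transcription with serum response factor (SRF). How the vectors were delivered, their promoter and the change that makes caMKL1 active are not stated in the labels. The series title refers to killing of these cells by cytotoxic T lymphocytes, but no T cells are named in the labels of the sequenced samples. Nothing in the labels says whether the 3 libraries of a group came from separate cultures, so p-values measure the spread between these libraries, which may be technical.

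T cells, natural killer cells and macrophages carry inhibitory receptors that dampen their response when a target cell shows the matching ligand. PD-L1 (CD274) and PD-L2 (PDCD1LG2) bind PD-1 on T cells, and blockade of that pair is used as a treatment of melanoma. Other arms act through B7 family proteins, through extracellular adenosine, through receptors of the nectin family, and through CD47, which signals to phagocytes not to engulf the cell. Interferon gamma is the best known inducer of CD274 transcription, acting through JAK kinases and IRF1. RNA levels do not show how much protein stands on the cell surface.

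The sequences upstream of the start sites are shown first, since several of the genes rose with caMKL1, a coactivator of SRF. Windows of 250 bases before the RefSeq start (assembly GRCh38.p14) were found for 9 of the 10 genes, PDCD1LG2 having no entry. The windows of CEACAM1 and VTCN1 are printed because these genes had the largest fold rises among the genes with a window, and that of CD274 because it holds the matches to interferon motifs. Each is given 5′ to 3′ on the strand of the gene and ends at the base before the start, with motif matches in capitals.
CD274, chr9:5450292-5450541, plus strand: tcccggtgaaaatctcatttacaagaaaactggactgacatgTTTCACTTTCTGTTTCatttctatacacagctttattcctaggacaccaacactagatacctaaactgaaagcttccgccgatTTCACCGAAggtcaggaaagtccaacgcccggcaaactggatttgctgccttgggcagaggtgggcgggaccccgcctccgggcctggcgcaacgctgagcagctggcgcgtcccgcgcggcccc
CEACAM1, chr19:42528482-42528731, minus strand: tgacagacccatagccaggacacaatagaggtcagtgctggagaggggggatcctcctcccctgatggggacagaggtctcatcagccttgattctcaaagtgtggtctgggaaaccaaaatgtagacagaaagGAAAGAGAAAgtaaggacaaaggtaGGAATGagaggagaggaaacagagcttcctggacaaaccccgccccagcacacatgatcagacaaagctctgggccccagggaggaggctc
VTCN1, chr1:117210928-117211177, minus strand: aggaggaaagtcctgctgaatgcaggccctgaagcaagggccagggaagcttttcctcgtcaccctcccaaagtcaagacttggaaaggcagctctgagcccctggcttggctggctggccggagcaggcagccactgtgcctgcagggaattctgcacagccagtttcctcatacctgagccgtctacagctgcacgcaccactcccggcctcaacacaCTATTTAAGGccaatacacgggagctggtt
Capitals in CD274 mark a pair of overlapping ISRE-like matches (GAAA, any 2 bases, GAAA, the core bound by interferon regulatory factors, here on the opposite strand) and 1 GAS match (TTCNNNGAA, the STAT site) that lies 125 to 117 bases before the start. Capitals in CEACAM1 mark 1 ISRE-like match and 1 TEAD match (GGAATG), and PVR also holds 1 TEAD match, 182 to 177 bases before its start. All motifs were searched on both strands. Among the 35116 windows of the RefSeq table, 3.02% held the ISRE-like motif, 6.57% the GAS motif and 11.9% the TEAD motif.

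No exact CArG box, the motif bound by SRF, was found in any of the 9 windows, against 1.16% of all windows. The capitals in VTCN1 mark the run CTATTTAAGG, 30 to 21 bases before the start, which differs from a CArG box in a single outer letter. The search that allowed this difference was added after the sequence had been seen, and 10.7% of all windows hold such a run. No window held an AP-1 match (TGANTCA, 6.57% of all windows), an E-box (CACGTG, 6.34%) or an NF-kappaB-like match (1.73%). CEACAM1 and VTCN1 had 1 and 6 CpG dinucleotides in the window, below the median of 11 over all windows, whereas CD274 had 16 and the other members between 19 and 39. A match is a description of letters, and its absence in 250 bases says nothing of SRF binding elsewhere.

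Depth was similar within a set, with 13937251 to 17178725 counts per library in the starvation set and 16557803 to 23957043 in the overexpression set. The overexpressed gene was checked first. MRTFA stood at 25.9 ± 0.258 CPM (counts scaled to library size, with SD, n = 3) in control vector libraries, at 737 ± 31.3 with MKL1 and at 470 ± 10.1 with caMKL1. Its RNA was thus higher in both overexpression groups, and its counts were higher with MKL1 than with caMKL1. As the change that makes caMKL1 active is not stated, these counts may not compare the RNA of the forms. The 14 lymphocyte and natural killer cell markers summed to 0.386 to 3.11 CPM over all libraries, with CD2, CD3G and MS4A1 among those at 0 throughout, while the 12 melanoma and melanocyte markers summed to 962 to 1550 CPM. Of the lymphocyte markers, 2 were tested in 0.1% FBS and both rose. When a library was left out, the log2 fold change was 1.125 to 1.612 for PTPRC and 0.9022 to 1.271 for CD4. CD4, the only one tested with caMKL1, rose there by 1.22. Both CD4 calls were lost in some of the fits without a library. The 11 myeloid markers summed to 30.5 to 37.2 CPM with the control vector, 52.9 to 56.8 with MKL1 and 68.7 to 75.2 with caMKL1; most of this was CD68, a lysosomal protein that other cells also make (23.2 CPM with the control vector and 58.1 with caMKL1), while AIF1 and C1QB were at 0 in all 3 of these groups. The 10 fibroblast and endothelial markers summed to 23.1 to 24.3 CPM with the control vector, 24.9 to 32.1 with MKL1 and 34.0 to 38.4 with caMKL1, and the 6 epithelial markers to 22.6 to 23.0, 17.3 to 17.9 and 33.5 to 35.7 CPM. LUM (12.1 CPM), CDH5 and VWF rose with caMKL1, as did KRT14 (25.5 CPM). When a library was left out, the log2 fold change was 3.765 to 4.276 for CDH5 and 1.014 to 1.428 for VWF. The epithelial marker CLDN4 fell with caMKL1 (-0.9405 to -0.757), and EPCAM and CDH1 were at 0.140 and 0.0163 CPM. In 10% and 0.1% FBS the myeloid markers summed to 50.5 to 56.5 and 57.2 to 61.0 CPM. The fibroblast and endothelial markers summed to 34.4 to 39.6 and 34.9 to 41.1 CPM, and the epithelial ones to 21.3 to 23.5 and 20.9 to 23.0 CPM. FAP, PECAM1 and ITGAX were among those that rose in 0.1% FBS, while DCN, COL1A1 and KRT14 fell. The part of these marker levels in the results below was not tested. In bulk RNA, more cells with a gene and more RNA per cell cannot be told apart.

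Levels between genes were compared in FPKM (fragments scaled to gene length and library size), which divides by gene length. CD276, which encodes B7-H3, was the highest of the 10 in FPKM in every group but caMKL1, at 62.4 in control vector cells. PVR, NT5E, CD47 and NECTIN2 always took the next places, although in caMKL1 cells PVR (70.9 FPKM) stood above CD276 (65.3 FPKM) and the ranges of the libraries did not overlap. The remaining members were far lower: in control vector cells VSIR had 1.52 FPKM, CD274 0.596, CEACAM1 0.214 and PDCD1LG2 0.0387, and VTCN1 was listed at 0. Neighbours in this order that overlapped were CD47 and NT5E in control vector and MKL1 cells, NT5E and CD47 as well as VSIR and CEACAM1 in 10% FBS, CD276 and NT5E as well as CD47 and PVR in 0.1% FBS, CD274 and CEACAM1 in MKL1 cells, and PDCD1LG2 and VTCN1 in control vector cells. The FPKM of the 10 genes summed to 170 ± 1.35 (SD, n = 3) with the control vector, 169 ± 6.27 with MKL1 and 239 ± 3.52 with caMKL1, and to 187 ± 5.49 in 10% FBS and 207 ± 4.59 in 0.1% FBS.

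**Figure D1:**
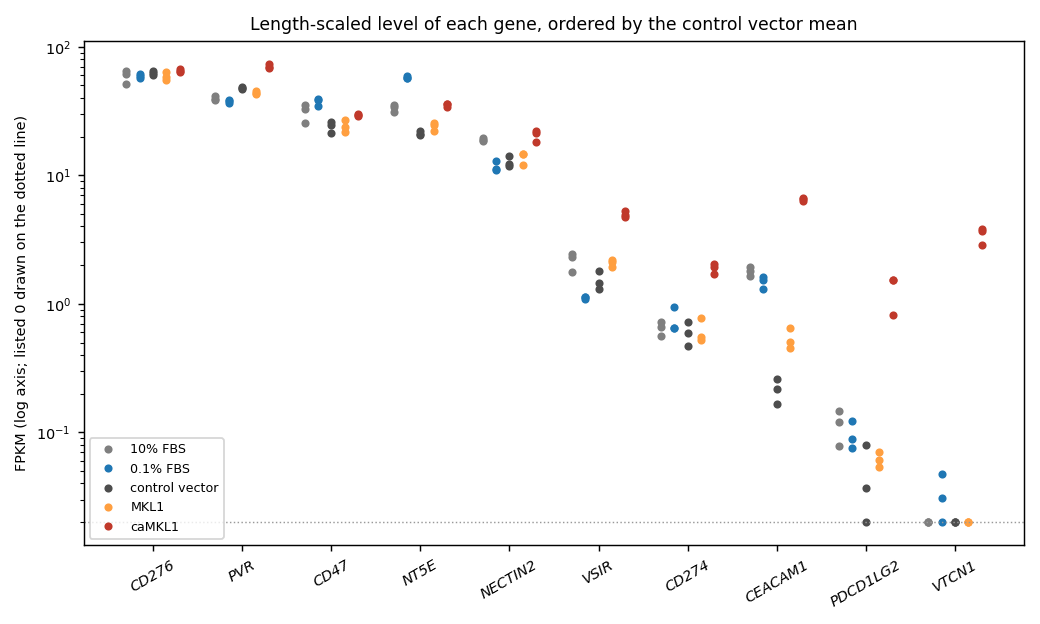
FPKM of the 10 genes in each library (points, log axis), coloured by group and ordered by the control vector mean; values listed at 0 are drawn on the dotted line. The 5 highest genes lie between 10.9 and 73.9 FPKM in every library, and VTCN1, PDCD1LG2 and CEACAM1 show the widest distance between caMKL1 and control vector libraries.

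The first comparison asked how these genes changed when serum was withdrawn. In 0.1% FBS, NT5E and CD47 rose and NECTIN2 and VSIR fell, while CD274, CD276, PVR and CEACAM1 did not pass the test. Thus 4 of the 8 tested members changed, near the 62.6% of all 13307 tested genes that did, with 31.2% of all rising and 31.4% falling (edgeR's quasi-likelihood test, Benjamini-Hochberg adjusted over all tested genes, threshold 0.05). The median log2 fold change was -0.09 for the tested members and -0.00418 for all genes. None of the 8 changed by 2-fold in either direction, beside 4.75% of all tested genes that rose and 2.75% that fell by that much. PDCD1LG2 and VTCN1 were too low to be tested.

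NT5E encodes CD73, the surface enzyme that turns AMP into adenosine, which inhibits T cells. Its CPM were 113, 103 and 104 in the libraries with 10% FBS against 178, 180 and 182 in those with 0.1% FBS. The starved libraries were all higher and varied little, and the log2 fold change was 0.75 ± 0.05 (SE; adjusted p = 7.24e-09, edgeR). CD47, the ligand of SIRP-alpha on macrophages, had CPM of 72.5, 65.4 and 77.6 in 10% FBS and 86.3, 86.4 and 80.3 in 0.1% FBS. The groups were apart by a narrow margin, with a log2 fold change of 0.23 ± 0.06 (adjusted p = 0.00473, edgeR); in the authors' deposited table the adjusted p of CD47 is 0.225.

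NECTIN2 encodes CD112, a ligand of the inhibitory receptor PVRIG and, more weakly, of TIGIT. Its CPM were 37.1, 39.7 and 35.4 in 10% FBS against 22.9, 22.1 and 21.4 in 0.1% FBS. All starved libraries lay lower, and the log2 fold change was -0.75 ± 0.07 (adjusted p = 3.42e-07, edgeR). VSIR encodes VISTA, a B7 family protein that acts on T cells and myeloid cells. With 10% FBS its CPM were 11.5, 11.0 and 8.45, and with 0.1% FBS 5.28, 5.21 and 5.13, a log2 fold change of -0.99 ± 0.14 (adjusted p = 2.33e-05, edgeR). Ordered by fold change from the highest, NT5E stood at 8.62% of all tested genes, NECTIN2 at 94.4% and VSIR at 97.1%.

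PVR, which encodes CD155, the main ligand of TIGIT and also of CD96 and the activating receptor CD226, fell by 0.10 ± 0.05 on the log2 scale without passing (adjusted p = 0.0756, edgeR). As NECTIN2 fell and PVR did not pass, the FPKM of NECTIN2 was 47.8 ± 0.911% of that of PVR in 10% FBS and 31.2 ± 3.69% in 0.1% FBS (SD, n = 3). CEACAM1, an adhesion protein that binds itself and TIM-3, had a log2 fold change of -0.33 ± 0.14 (adjusted p = 0.0532, edgeR), with 6.00 ± 0.355 and 4.79 ± 0.359 CPM. For CD274 the 10% FBS libraries held 41, 44 and 32 raw counts and the starved ones 39, 39 and 48, so the groups overlapped and the log2 fold change of 0.17 ± 0.22 did not pass (adjusted p = 0.528, edgeR). CD276 was at 183 ± 23.5 and 172 ± 4.53 CPM, and 1 library decides how it is read: without the third 10% FBS library the adjusted p is 0.00389, and that of PVR 0.0292, so that 4 members in place of 2 would fall. PDCD1LG2 had 5, 6 and 3 counts in 10% FBS and 5, 3 and 3 in 0.1% FBS. VTCN1 had 0 counts in 10% FBS and 3 in all in 0.1% FBS.

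**Figure D2:**
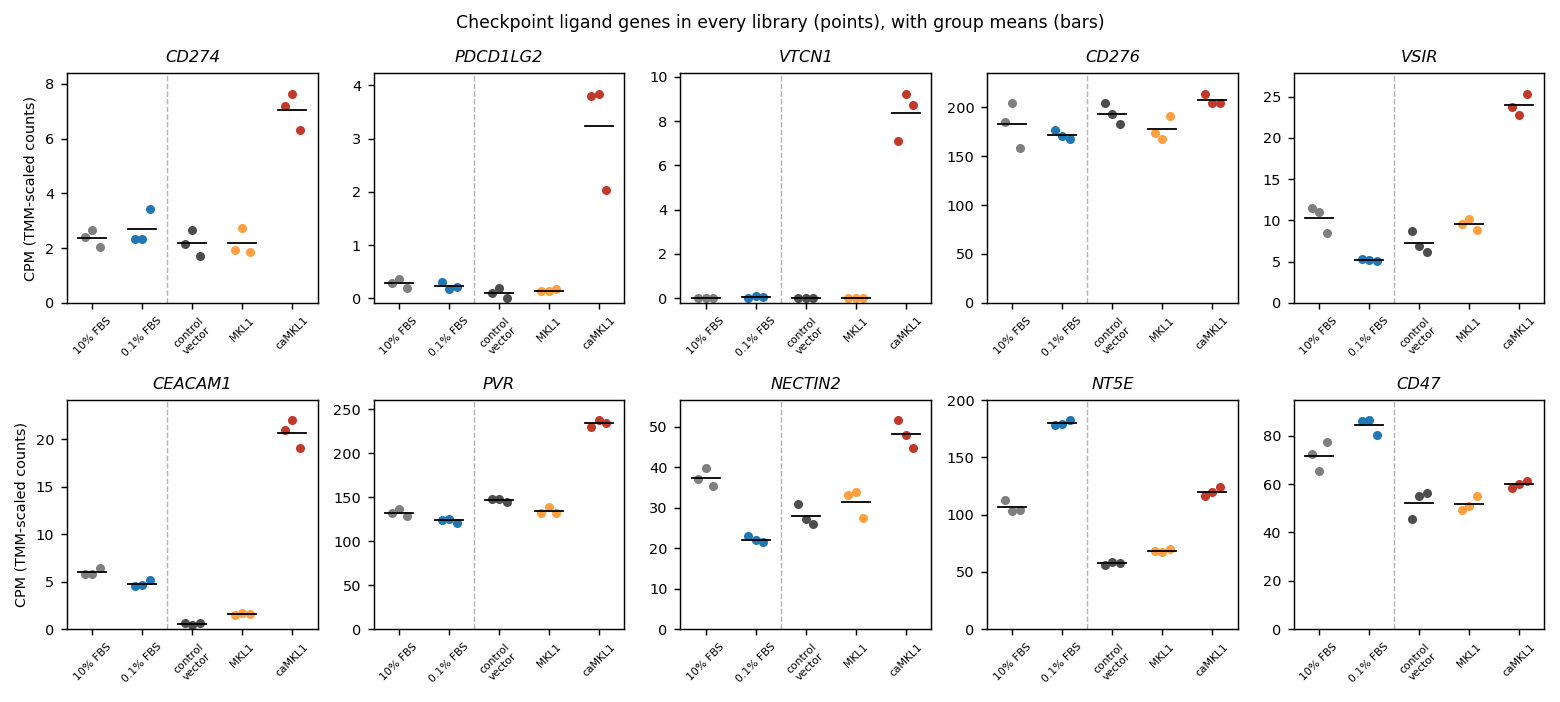
CPM of each gene in each library (points) with the group mean (bar), on linear axes that start at 0; the dashed line separates the starvation set from the overexpression set, which were scaled separately. The caMKL1 and control vector libraries overlap for CD276, while those of VTCN1, PDCD1LG2 and CEACAM1 are far apart, and NT5E is higher in 0.1% than in 10% FBS.

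The second comparison asked what MKL1 did without the activating change. CEACAM1, NT5E and VSIR rose, and no member fell. These are 3 of 8 tested members, beside 15.8% of all 13409 tested genes that rose, 15.4% that fell and 31.2% that changed in either direction. CEACAM1 was under the count minimum of 0.44 CPM in 1 control library; among the 7 members that reached it in every library of both groups 2 rose, with a median log2 fold change of 0.02 against 0.01 over all genes.

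CEACAM1 had raw counts of 13, 9 and 14 with the control vector and of 36, 36 and 39 with MKL1. The groups were well apart at a low level, and the log2 fold change was 1.60 ± 0.27 (adjusted p = 0.000694, edgeR). For NT5E, CPM of 56.1, 58.3 and 58.0 in control libraries compared with 68.3, 67.5 and 69.6 under MKL1. In CPM this small difference exceeded the spread of the libraries, with a log2 fold change of 0.27 ± 0.05 (adjusted p = 0.00108, edgeR). In FPKM the libraries overlapped, at 20.719 to 22.225 with the control vector and 22.159 to 25.558 with MKL1. For VSIR they were 8.65, 6.84 and 6.11 in control libraries and 9.60, 10.2 and 8.82 under MKL1, a log2 fold change of 0.42 ± 0.13 (adjusted p = 0.0204, edgeR). The VSIR call was lost when control vector replicate 2 or 3 or MKL1 replicate 1 or 2 was left out (adjusted p between 0.065 and 0.0879), and in the authors' deposited table its adjusted p is 0.0613.

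CD274 had 48, 55 and 41 counts with the control vector and 46, 57 and 45 with MKL1. The groups overlapped, and the log2 fold change was 0.02 ± 0.23 (adjusted p = 0.957, edgeR), a standard error that leaves small changes undetectable at this depth. CD47 (0.01 ± 0.08, adjusted p = 0.958), CD276 (-0.10 ± 0.06, 0.176), PVR (-0.11 ± 0.04, 0.071) and NECTIN2 (0.19 ± 0.09, 0.113) did not pass either. NECTIN2 passed when control vector replicate 1 or MKL1 replicate 3 was left out, with adjusted p of 0.0252 and 0.0354, and PVR passed as a fall (-0.13, adjusted p = 0.0189) when all 9 overexpression libraries were fitted together. PDCD1LG2 had 2, 4 and 0 counts against 3, 3 and 4, and VTCN1 had 0 counts in all 6 libraries.

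The third comparison asked what constitutively active MKL1 did. With caMKL1, 9 of the 10 genes rose, all but CD276. The largest changes were in genes that control vector cells barely expressed. A gene under the count minimum there is tested only if it is high with caMKL1, so nothing is read from that link. The comparison uses the same control libraries as the previous one. Over all 13558 tested genes 63.6% changed, 30.5% rising and 33.1% falling, and 32.7% had caMKL1 libraries that all lay above the control libraries. PDCD1LG2 and VTCN1 reached the count minimum of 0.48 CPM through the caMKL1 libraries alone. Their rise was thus a condition of being tested, and they cannot be read against those shares. CEACAM1 was under the minimum in 1 control library. Of the 7 members that reached the minimum in every library of both groups 6 rose, 3 of them by at least 2-fold, and the median log2 fold change of the 7 was 0.79 against -0.02 over all genes. At least 2-fold rises made up 8.02% of all tested genes.

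**Figure D3:**
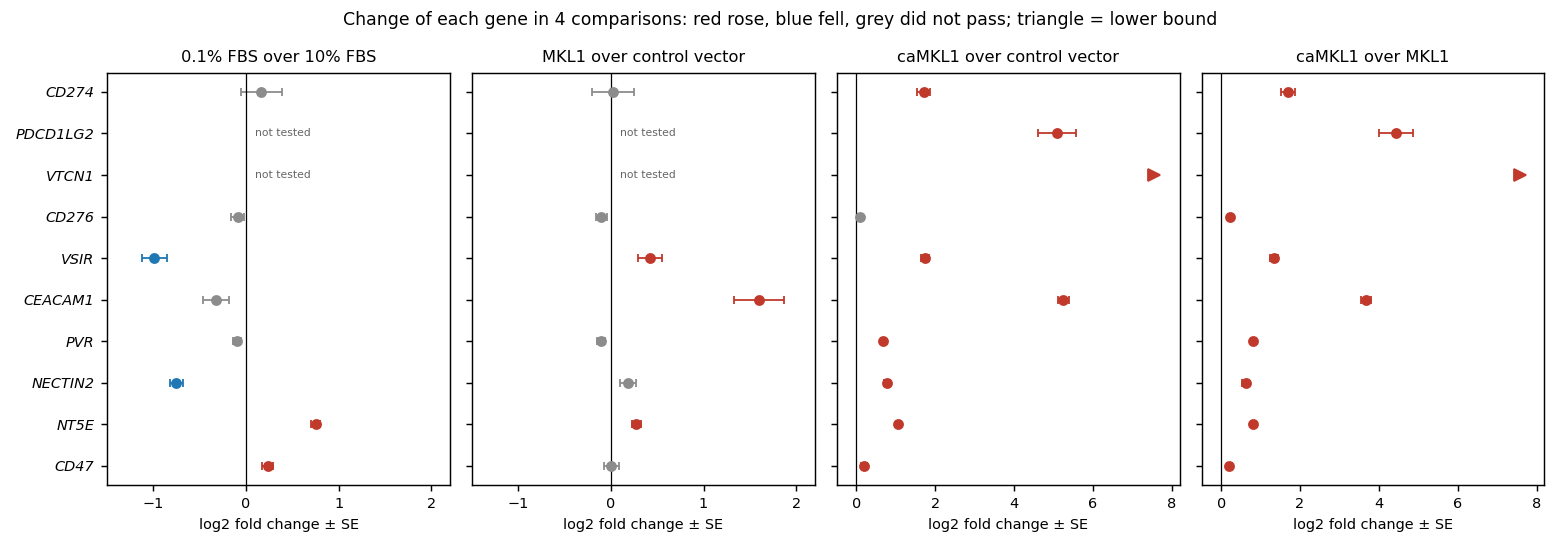
Log2 fold change of each gene with its SE in the 4 comparisons; red genes rose, blue genes fell and grey genes did not pass an adjusted p of 0.05 (edgeR). Triangles mark the lower bound of VTCN1, whose control vector and MKL1 libraries held 0 counts; the caMKL1 panels use a wider axis.

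The PD-1 ligands rose together. CD274 had 147, 133 and 102 counts with caMKL1 against 48, 55 and 41 with the control vector, or 7.18, 7.63 and 6.30 against 2.16, 2.65 and 1.72 CPM. Every caMKL1 library was higher than every control library, with a log2 fold change of 1.70 ± 0.17 (adjusted p = 6.8e-07, edgeR). PDCD1LG2 had 78, 67 and 33 counts against 2, 4 and 0, a log2 fold change of 5.09 ± 0.49 (adjusted p = 5.14e-07, edgeR). It was tested only because of its caMKL1 libraries, so this p-value gives no separate support. The third caMKL1 library had a lower CPM than the others, at 2.04 against 3.81 and 3.84, and was still above all control libraries. As the control counts are so low, the fold rests on single libraries: the log2 fold change is 6.04 without control vector replicate 2 and 4.48 without replicate 3, and the call holds in both. The FPKM of PDCD1LG2 was 67.6 ± 16.8% of that of CD274 with caMKL1 and 5.71 ± 5.45% with the control vector (SD, n = 3). The genes lie 40.0 kb apart on the plus strand of chromosome 9 (GRCh38, CD274 at 5450503 to 5470566 and PDCD1LG2 at 5510570 to 5571254).

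Among the other B7 family genes, VTCN1, which encodes B7-H4, went from no counts to expression. It had 145, 161 and 141 counts in the caMKL1 libraries and 0 in all 6 control vector and MKL1 libraries, and 0 in the 10% FBS libraries. Against a floor of 3 counts over the control group, its mean of 8.34 ± 1.12 CPM was at least 186-fold higher (adjusted p = 9.85e-10, edgeR). The floor covers counting error only. VTCN1 was tested only because of its caMKL1 libraries, so this p-value gives no separate support. VSIR rose to 23.8, 22.8 and 25.3 CPM, a log2 fold change of 1.74 ± 0.11 (adjusted p = 4.9e-09, edgeR). CD276 did not pass, at 214, 205 and 204 CPM against 205, 193 and 183 (log2 fold change 0.10 ± 0.05, adjusted p = 0.0714, edgeR), although it did pass with DESeq2 (adjusted p = 0.0469), with RLE size factors (0.0463) or without control vector replicate 1 (0.000385).

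CEACAM1 had 429, 383 and 309 counts with caMKL1 against 13, 9 and 14 with the control vector. The log2 fold change was 5.25 ± 0.15 (adjusted p = 4.62e-13, edgeR), and its FPKM rank among the 10 genes moved above those of VSIR and CD274. Of the other CEACAM family genes only CEACAM19 was high enough to be tested; CEACAM3, CEACAM4, CEACAM5, CEACAM7 and CEACAM8 had no count in any overexpression library. CEACAM1 lies on chromosome 19, minus strand, at 42507304 to 42561234 (GRCh38), and this GENCODE gene reaches further upstream than the RefSeq start used for its window. Its level in the 10% FBS cells of the other set was 1.80 FPKM against 0.214 FPKM in control vector cells; the sets differ in handling and have no libraries in common, so that difference cannot be told apart from the set.

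The nectin family ligands rose to a lesser degree. PVR was at 230, 237 and 235 CPM with caMKL1 against 148, 148 and 144 CPM with the control vector, a log2 fold change of 0.68 ± 0.04 (adjusted p = 2.5e-09, edgeR). NECTIN2 was at 51.6, 48.0 and 44.8 CPM against 30.8, 27.2 and 26.0, a log2 fold change of 0.79 ± 0.07 (adjusted p = 4.4e-07, edgeR). Neither pair of groups overlapped. PVR shares 121 of its 3519 exonic bases with CEACAM19 on the same strand, and CEACAM19 rose too (log2 fold change 1.94, adjusted p = 7.6e-08, edgeR), at 7.07 CPM against 234 CPM for PVR in the caMKL1 libraries. The FPKM of NECTIN2 was 26.7 ± 3.01% of that of PVR with the control vector and 28.9 ± 3.07% with caMKL1 (SD, n = 3).

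NT5E was at 116, 120 and 124 CPM with caMKL1, above 56.1, 58.3 and 58.0 with the control vector, a log2 fold change of 1.06 ± 0.05 (adjusted p = 1.05e-10, edgeR). The authors' deposited log2 fold change is 0.72, and the FPKM means were 35.1 with caMKL1 and 21.3 with the control vector. Whether NT5E rose by 2-fold thus depends on the measure. CD47 was at 58.4, 60.0 and 61.4 CPM against 45.4, 55.1 and 56.2. The ranges were narrowly apart, the log2 fold change was 0.20 ± 0.07 (adjusted p = 0.0255, edgeR), and the call was lost with plain library totals (adjusted p = 0.0552) or without caMKL1 replicate 2 (0.0728) or 3 (0.089). CD47 thus had the smallest change of the genes that rose.

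Set beside the starvation comparison, which uses no library of the overexpression set, NT5E rose in both (0.75 in 0.1% FBS and 1.06 with caMKL1 on the log2 scale), as did CD47 (0.23 and 0.20). NECTIN2 and VSIR fell in 0.1% FBS (-0.75 and -0.99) and rose with caMKL1 (0.79 and 1.74). CD274 did not pass in 0.1% FBS (0.17) and rose with caMKL1 (1.70). For reference, among the MRTF-SRF target genes ACTA2, MYL9, CNN1, TAGLN, VCL, ACTB, SRF, FHL2, TPM1, CCN1 and CCN2, all 11 rose with caMKL1, 6 of 10 tested rose with MKL1, and 6 of 10 tested fell in 0.1% FBS while 1 rose.

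The fourth comparison set caMKL1 directly against MKL1, with all 9 libraries of that set in the fit. All 10 members were higher with caMKL1, and every member's libraries were apart from those of MKL1. MRTFA counts were lower with caMKL1, but, as said above, they may not compare the RNA of the forms. Of all 13720 tested genes 52.2% changed, 25.2% being higher and 27% lower; 5.78% were at least 2-fold higher, and in 29.4% every caMKL1 library lay above every MKL1 library. PDCD1LG2 and VTCN1 again reached the count minimum only through caMKL1; the other 8 reached it in both groups and all rose, 3 of them by at least 2-fold, with a median log2 fold change of 0.81 against -0.02 over all genes. This comparison tests the difference between the forms for each gene. It was 1.70 ± 0.18 for CD274 (adjusted p = 5.3e-07), 3.67 ± 0.12 for CEACAM1 (3.89e-14), 1.33 ± 0.10 for VSIR (5.56e-09) and 0.81 ± 0.04 for NT5E (4.74e-11) on the log2 scale by edgeR. PDCD1LG2 differed by 4.43 ± 0.43 (adjusted p = 1.51e-07, edgeR), and VTCN1 was at least 191-fold higher against the floor of 3 counts over the MKL1 group (adjusted p = 4.99e-10, edgeR). For PDCD1LG2 and VTCN1 these p-values again give no separate support. PVR (0.80 ± 0.04), NECTIN2 (0.62 ± 0.08) and CD276 (0.22 ± 0.05, adjusted p = 0.00154, edgeR) were higher as well. The CD47 difference of 0.21 ± 0.07 (adjusted p = 0.0183, edgeR) was lost with library totals (0.114) and when MKL1 replicate 1 or 2 or caMKL1 replicate 2 or 3 was left out (adjusted p 0.0511 to 0.0841). With library totals the share of higher genes among all calls of this comparison was 35.8% in place of 48.3%.

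The genes that act with these ligands were read from the same fits. Their counts stand beside the shares of all tested genes, which were 30.5% higher and 33.1% lower with caMKL1, 15.8% and 15.4% with MKL1, and 31.2% and 31.4% in 0.1% FBS, and nothing particular to a list is read from a count near these. Of 20 genes that maintain or degrade PD-L1 protein, 19 were tested, and 8 rose and 6 fell with caMKL1. CMTM6, which keeps PD-L1 at the cell surface and out of lysosomes, rose from 109 ± 15.3 to 214 ± 3.30 CPM (SD, n = 3), a log2 fold change of 0.96 ± 0.07 (adjusted p = 5.56e-08, edgeR), and by 0.34 ± 0.08 with MKL1 (adjusted p = 0.00494). CMTM6 shares 324 of its 4413 exonic bases with CMTM7 on the opposite strand. TRAPPC4, which takes part in PD-L1 recycling, USP22, a deubiquitinase, and the kinase subunit CSNK2A1 fell with caMKL1 by 0.47, 0.32 and 0.31 on the log2 scale. In 0.1% FBS, 6 of the 19 rose and 7 fell, among them CMTM4, a relative of CMTM6 (0.46), and ZDHHC3, a palmitoyltransferase (-0.43).

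Of 21 interferon pathway genes and CD274 regulators, all tested, 7 rose and 5 fell with caMKL1, 4 rose and 4 fell with MKL1, and 9 rose and 5 fell in 0.1% FBS. With caMKL1, IRF9, a DNA-binding subunit of the interferon-stimulated ISGF3 complex, went from 3.49 to 7.81 CPM (log2 fold change 1.17, adjusted p = 1.25e-05, edgeR), and NFKB1 (0.46) and YAP1 (0.39) rose. MYC fell by 0.76. In 0.1% FBS, where CD274 did not pass, JAK2 rose from 17.4 ± 1.98 to 28.3 ± 2.46 CPM (log2 fold change 0.70 ± 0.09, adjusted p = 1.29e-05, edgeR).

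Around NT5E, 14 of 18 genes of the adenosine pathway were tested, of which 3 rose and 4 fell with caMKL1. ACP3 (log2 fold change 2.18 ± 0.10) and ALPL (2.96 ± 0.17), phosphatases that can also release adenosine from AMP, rose with caMKL1. ALPP, a further phosphatase gene of the list, fell, with a log2 fold change of -3.371 to -3.115 when a library was left out. ALPP also fell with MKL1 (-2.184 to -2.008) and in 0.1% FBS (-7.865 to -7.723). SLC29A1, an equilibrative nucleoside transporter, fell with caMKL1 by 0.65 ± 0.08. In 0.1% FBS 4 rose and 5 fell. SLC29A1 fell there too, by 0.89, while SLC29A2, its relative, rose by 0.75, and the adenosine receptor gene ADORA1 fell from 9.30 ± 0.376 to 2.94 ± 0.723 CPM (log2 fold change -1.64 ± 0.16, adjusted p = 6.56e-07, edgeR).

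Of the nectin and nectin-like family, 9 of 13 genes were tested with caMKL1, where 4 rose and 3 fell, and 8 in 0.1% FBS, where 2 rose and 6 fell. AFDN, the adaptor that ties nectins to actin, rose in both (0.72 with caMKL1 and 0.63 in 0.1% FBS). CADM3, a nectin-like adhesion gene, fell in both (-0.99 and -1.70), and NECTIN4 rose in 0.1% FBS from 0.409 ± 0.205 to 3.92 ± 0.490 CPM (log2 fold change 3.24, adjusted p = 3.97e-07, edgeR). CD96, known as a receptor for PVR on T and natural killer cells, was read at 161 ± 2.00 CPM in control vector cells, although lymphocyte markers were near 0. It fell in 0.1% FBS from 219 ± 7.64 to 158 ± 5.31 CPM (log2 fold change -0.47, adjusted p = 5.85e-07, edgeR). The other PVR receptors were low, with TIGIT at no more than 3 counts over any group and CD226 at 0.697 ± 0.159 CPM in control vector cells. PDCD1, which encodes PD-1, the receptor of CD274 and PDCD1LG2, was at 0 in every library.

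Of 12 partners of CD47, 11 were tested, of which 6 rose and 3 fell with caMKL1 and 5 rose and 4 fell in 0.1% FBS. SIRPA, which encodes the CD47 receptor, fell from 42.3 ± 2.04 to 21.3 ± 1.72 CPM with caMKL1 (log2 fold change -0.99, adjusted p = 2.52e-08, edgeR) and to 28.5 ± 1.23 CPM with MKL1 (-0.55). SIRPA is close in sequence to SIRPB1, and reads could be split between them. ITGB3, an integrin subunit that CD47 associates with, rose by 0.87 with caMKL1 and fell by 0.58 in 0.1% FBS. THBS1, the thrombospondin that binds CD47, had CPM of 301, 260 and 279 with 10% FBS against 21.2, 21.2 and 18.2 with 0.1% FBS, a log2 fold change of -3.79 ± 0.07 (adjusted p = 1.61e-14, edgeR). THBS1 also fell with MKL1 (-0.67 ± 0.09, adjusted p = 0.000122, edgeR) and with caMKL1 (-0.43 ± 0.06, adjusted p = 1.37e-05, edgeR). It overlaps FSIP1 on the opposite strand in 448 of 9158 exonic bases.

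A list of 17 further ligands and enzymes that act on immune cells was read as well. Not all of them are inhibitory, as ICOSLG binds a costimulatory receptor. With caMKL1 8 were tested, of which 5 rose and 2 fell. CD24, a ligand of Siglec-10 on macrophages, rose from 0.526 ± 0.282 to 20.9 ± 1.20 CPM (log2 fold change 5.26 ± 0.18, adjusted p = 5.08e-12, edgeR), and reached 1.37 ± 0.131 CPM with MKL1 (1.36, adjusted p = 0.00782). CD24 has near-identical pseudogene copies, so its counts are less certain. Its lowest control vector library, at 0.289 CPM, lay under the count minimum of these tests. CD24 was thus tested only with the help of the groups where it was higher, and nothing further is read from its p-values. CD200, ligand of an inhibitory receptor on myeloid cells, rose from 2.87 ± 0.115 to 6.04 ± 0.259 CPM with MKL1 and 12.5 ± 0.825 CPM with caMKL1, and fell in 0.1% FBS from 2.53 ± 0.365 to 0.559 ± 0.144 CPM (log2 fold change -2.14, adjusted p = 1.47e-05, edgeR). BTN3A1, a butyrophilin seen by gamma delta T cells, was higher with MKL1 than with the control vector (0.73) and lower with caMKL1 than with MKL1 (-0.46). In 0.1% FBS 2 of 9 tested rose and 1 fell.

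The chromosome neighbours of the ligands were read next. Within 500 kb of the start of CD274, a window that also holds PDCD1LG2, 5 of the 9 other genes were tested. With caMKL1 4 rose, none by 2-fold, beside 30.5% of all tested genes that rose: PLGRKT (0.72), ERMP1 (0.65), JAK2 (0.45) and RIC1 (0.28) on the log2 scale. RIC1 and ERMP1 share 286 exonic bases on opposite strands. In 0.1% FBS 4 of the 5 rose, among them JAK2 (0.70), RIC1 (0.68) and ERMP1 (0.40), and PLGRKT, which lies beside CD274, fell (-0.75 ± 0.13, adjusted p = 0.00012, edgeR), beside 31.2% of all tested genes that rose and 31.4% that fell. Within 500 kb of PVR and NECTIN2, which lie 183 kb apart on chromosome 19 (44643798 to 44663583 and 44846175 to 44889228, plus strand), 24 of the 35 other genes were tested. With caMKL1 5 of them rose and 10 fell, beside 30.5% and 33.1% of all tested genes, and those that rose by at least 2-fold were CEACAM19 and BCAM, a laminin-binding adhesion gene, which went from 16.6 to 39.6 CPM (log2 fold change 1.25 ± 0.06) and fell in 0.1% FBS (-1.48 ± 0.11).

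**Figure D4:**
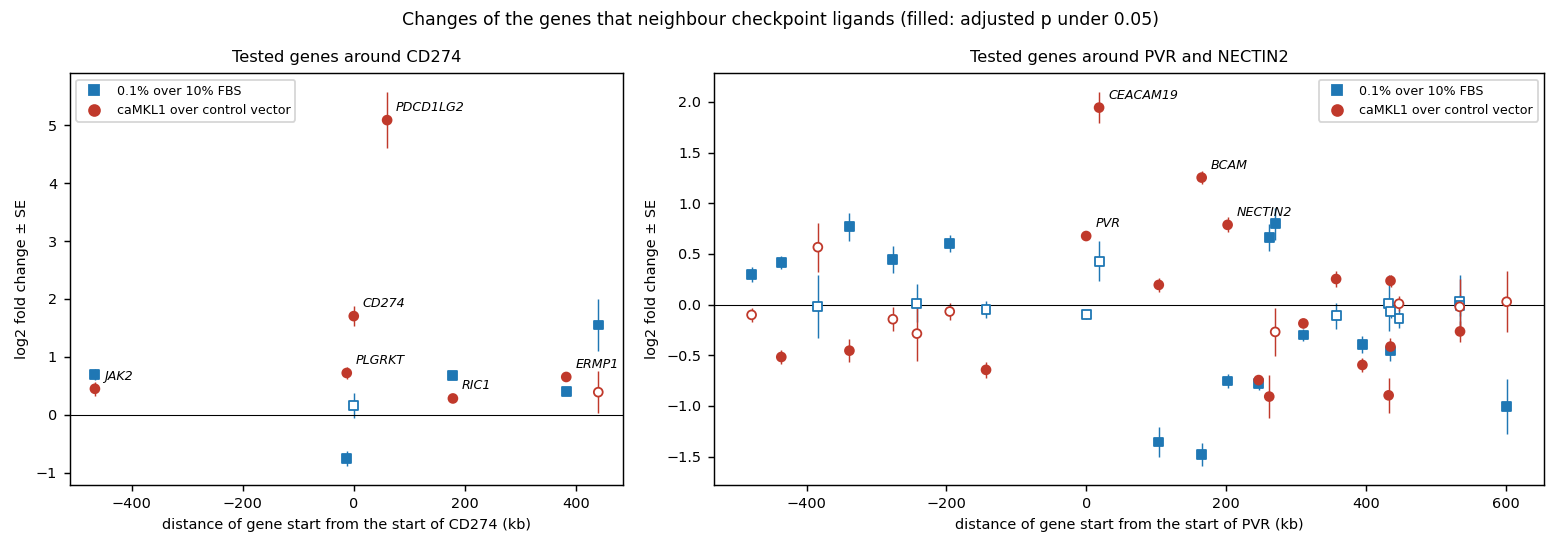
Log2 fold change with its SE of tested genes against the distance of their start from that of CD274 (left) or PVR (right), in 0.1% over 10% FBS (blue squares) and caMKL1 over control vector (red circles); filled symbols have an adjusted p under 0.05. CD274 and PDCD1LG2 lie above their neighbours with caMKL1, and CEACAM19 and BCAM lie above PVR and NECTIN2.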

How the data were processed

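Counts, FPKM and test results were read from 3 gene tables that the authors deposited, 1 for each pair of groups (20332 genes for starvation, 20323 for each overexpression table); the control vector counts are the same in both overexpression tables. Per the file headers the deposited values are counts per gene and library, and FPKM per library; they are whole numbers, but the submitters' processing notes name RSEM beside Bowtie2 2.2.8, HISAT2 2.2.4, StringTie 1.3.1, DESeq2 and GRCh38, so counts may be rounded estimates. What each tool did, the annotation and the use of strand are not given in these sources. The authors' deposited log2 fold changes and p-values were used only where named. Libraries were made from oligo(dT)-selected RNA, per the labels' protocols. FPKM served for the order of levels between genes, for sums and ratios of members in each group and, where named, for levels of a gene between groups. No test used FPKM.

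The tests used edgeR 4.0.16 under R 4.3.3 (scaling by TMM, filterByExpr on the groups of the fit, glmQLFit and glmQLFTest, two-sided, Benjamini-Hochberg over all tested genes, threshold 0.05), on the 6 libraries of a comparison, or on 9 for caMKL1 against MKL1. SEs were derived from the fold change and its F statistic. CPM values carry the TMM scaling of their own set. A fold against 0 uses a floor of 3 counts over the group. Alternatives were DESeq2 1.42.0, RLE and library-total scaling, no and stricter filters, a replicate block and leaving out each library. The fits were tested on simulated data. The 10 members, the 14 gene lists and the tests were chosen with earlier results of these data known. The rule for named genes takes all members, MRTFA and, per list and comparison, up to 4 genes with the smallest p; neighbours, IRF9 with caMKL1 and CD68 were named beside it. A few genes named by it are left out here. Coordinates and overlaps come from GENCODE (GRCh38), promoter windows from RefSeq (GRCh38.p14); windows were cut to the 250 bases before the start.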

Additional observations from a re-analysis of the deposited data

How the results depend on the processing

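Over the members' fold changes, 432 of the values under the alternatives kept direction and side of the threshold, 10 passed newly, 12 lost the call and 6 changed sign, all of the last in genes without a call. These were CD274 in 0.1% FBS without 0.1% FBS replicate 3 (-0.029, with 0.2625 as the highest value when a library was left out), CD274 with MKL1 without control vector replicate 3 (-0.14) and without MKL1 replicate 2 (-0.1702, highest 0.17), and CD47 with MKL1 in the fit of all 9 overexpression libraries (-0.012), without control vector replicate 1 (-0.08763, highest 0.05208) and without MKL1 replicate 3 (-0.04). The number of members that fell in 0.1% FBS lay between 2 and 4 when a library was left out, and 1 member (PVR) fell with MKL1 in the fit of all 9 overexpression libraries, for which the cause was not tested. Genes called with MKL1 lay between 2595 and 4094 when a library was left out, the lowest without MKL1 replicate 3, where fewer samples are fitted. No pairing by replicate number was seen, although few pairs were available. Correlations of deviations were -0.127 to 0.0983 for same-numbered libraries and -0.114 to 0.106 for differently numbered ones. With a replicate block 8668, 4569, 8710 and 7396 genes were called in starvation, MKL1, caMKL1 and caMKL1 against MKL1. Without it the counts were 8333, 4182, 8623 and 7164. NECTIN2 with MKL1 (adjusted p = 0.0432, edgeR) and CD276 with caMKL1 (0.0348) passed with the block. With library totals 60.1% of the MKL1 calls were higher, in place of 50.5%. Depth limits CD274, PDCD1LG2 and VTCN1 outside caMKL1: without the filter on low counts PDCD1LG2 had adjusted p of 0.751 in 0.1% FBS and 0.631 with MKL1, and VTCN1 0.206 in 0.1% FBS.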

Other observations

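CTLA4, known as an inhibitory receptor of T cells, rose in 0.1% FBS from 0.63 ± 0.25 to 2.19 ± 0.08 CPM (SD, n = 3; log2 fold change 1.79, adjusted p = 0.000118, edgeR), higher in 3 of 3 libraries. SELPLG, which encodes PSGL-1, a VISTA receptor at acidic pH, rose with caMKL1 from 0.939 ± 0.273 to 3.17 ± 0.344 CPM (1.77, adjusted p = 1.38e-05). IGSF11, another VISTA partner, rose with MKL1 (0.85, adjusted p = 0.00318) and was lower with caMKL1 than with MKL1 (-0.82, adjusted p = 0.000883). ICOSLG, the ligand of the costimulatory receptor ICOS, rose in 0.1% FBS from 3.35 ± 0.208 to 7.13 ± 0.734 CPM (1.08, adjusted p = 1.67e-05).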
